A study of Mus musculus with 12 samples.

Results

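The genes described are 8 transcription factors of the myeloid lineage, 5 of the C/EBP family (Cebpa, Cebpb, Cebpd, Cebpe and Cebpg) together with Spi1, Nr4a1 and Klf2. They were picked by gene symbol, and each had 1 row among the 32285 genes of the retina table and 1 row among the 55401 genes of the pericyte table. The filter on low counts was passed by 7 of the 8 in each table and not by Cebpe.

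The study, whose title concerns retinal Ly6Clow Mo/MΦ and injury of the optic nerve, sequenced RNA of wild-type (WT) mice in 12 libraries, 3 in each of 4 groups. In the retina, the treatment labels were ONC+i.o.MSC.sEV for the vesicle group and ONC+PBS for its control, both at day 1; ONC, which both groups carried, is taken as optic nerve crush. MSC.sEV is taken as small extracellular vesicles of mesenchymal stem or stromal cells, and i.o. appears in the label of the vesicle group but not of the PBS group. In culture, cells labelled brain microvascular pericytes (P4) received MSC.sEV or PBS for 12 hours. Nothing in the labels tells if libraries within a group are distinct animals or cultures, so p-values measure only the spread between libraries, which may be technical. The retina columns carry short names that were assigned to the groups by their letters (CTR for PBS and M for vesicles), so their group rests on an inference and their numbers are column numbers.

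C/EBP proteins are basic leucine zipper factors that bind DNA as pairs within and across the family. C/EBPα and C/EBPε act in granulocyte formation, C/EBPβ and C/EBPδ rise in inflammation and drive acute-phase genes, and C/EBPγ lacks a classical activation domain and pairs with other members. PU.1, the product of Spi1, is an ETS factor needed for macrophages and neutrophils. Nr4a1 is an orphan nuclear receptor and immediate early gene on which Ly6C-low monocytes of the mouse depend, as they do on C/EBPβ. Klf2 is a zinc finger factor known for quiescence in endothelial cells, T cells and macrophages.

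Promoter windows are shown for 3 members that differed in their response to vesicles in the counts below: Cebpb (higher with vesicles in both tables), Klf2 (higher with vesicles in the retina) and Nr4a1 (no call in either). RefSeq windows on GRCm38.p6 matched 5 of the 8 members, and the 250 bases ahead of each start are printed 5′ to 3′ on the gene's strand. Capitals mark matches, on either strand, to TGACG (the core of the cAMP response element), TGCGTCA (a related element) or the MEF2 motif (CTA and TAG with 4 bases between). The windows are chr2:167688665-167688914 (+) for Cebpb, chr8:72318812-72319061 (+) for Klf2 and chr15:101266596-101266845 (+) for Nr4a1.
Cebpb: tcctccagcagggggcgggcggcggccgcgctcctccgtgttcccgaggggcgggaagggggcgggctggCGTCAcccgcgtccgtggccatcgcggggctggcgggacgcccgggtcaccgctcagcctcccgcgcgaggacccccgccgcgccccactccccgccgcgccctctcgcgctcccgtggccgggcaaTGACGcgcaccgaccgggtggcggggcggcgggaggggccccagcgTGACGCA
Klf2: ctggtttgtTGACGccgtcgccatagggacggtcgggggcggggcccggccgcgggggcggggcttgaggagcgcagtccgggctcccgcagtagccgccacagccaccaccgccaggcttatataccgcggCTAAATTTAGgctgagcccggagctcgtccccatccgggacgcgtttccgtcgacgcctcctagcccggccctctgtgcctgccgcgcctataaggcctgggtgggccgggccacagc
Nr4a1: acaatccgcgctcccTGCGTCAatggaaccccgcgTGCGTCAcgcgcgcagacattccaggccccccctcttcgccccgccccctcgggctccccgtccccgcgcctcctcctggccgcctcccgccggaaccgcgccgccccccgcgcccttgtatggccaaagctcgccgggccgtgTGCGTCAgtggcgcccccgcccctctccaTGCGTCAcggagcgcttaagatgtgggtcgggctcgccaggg
The Cebpb window held 3 matches to TGACG, beginning at positions -180, -53 and -7 from the start, and the last lies within a match to TGCGTCA on the other strand. The Nr4a1 window held 4 matches to TGCGTCA, each of which holds a TGACG match on the other strand. The Klf2 window held 1 TGACG match and, at -118, 1 match to the MEF2 motif. Of 32851 promoter windows of the same length, 17.8% held TGACG, 1.75% TGCGTCA and 3.2% the MEF2 motif. The motifs TTNNGNAA (C/EBP; in 36.8% of windows), GAGGAA (PU.1; 23.3%), the NF-κB motif (GGG and TTTCC with 2 bases between; 1.41%) and TTCNNNGAA (STAT; 7.02%) were also searched on both strands, with no match in these 3 windows. The windows of Cebpa and Cebpg, on chromosome 7, held none of the 7 motifs. A match is a run of letters and not a bound site.

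The retina libraries held from 15580024 to 16842926 counts and the pericyte libraries from 33001248 to 37954077. Values below are CPM, counts scaled to library size by TMM factors. A gene was called when its adjusted p from edgeR's quasi-likelihood test was under 0.05. The share of crystallin and other lens mRNAs was 1.63, 6.37 and 0.0091% in vesicle retinas and 0.573, 0.06 and 0.0508% in PBS retinas. The retina results were therefore also computed without the library richest in them in each group, vesicle library 2 and PBS library 1. Vesicle library 1, at 1.63%, was kept in that fit. Leaving out this lens-rich pair thus did not level the lens share between the groups. In the pericyte-labelled cells, Pdgfrb stood at 70.8 ± 4.89 CPM with vesicles and 59.7 ± 3.48 CPM with PBS (SD, n = 3 each), and of 9 mural markers tested Cspg4 and Pdgfrb were called higher and Notch3 and Anpep lower. Des, Kcnj8 and Abcc9 were under the filter. Astrocyte markers summed to between 1588 and 1637 CPM there with vesicles and between 1548 and 1565 CPM with PBS. Oligodendrocyte markers, 3 of 6 tested called lower, summed to 413.5 to 471.9 CPM with vesicles and 552.2 to 568.8 CPM with PBS, and endothelial markers, of which Flt1 was higher and Kdr lower, to 89.0 to 97.9 CPM with vesicles and 60.3 to 61.4 CPM with PBS. Their part in the levels of the factors was not tested.

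In the retina, Cebpb, Cebpd, Cebpg, Spi1 and Klf2 were higher with vesicles. Thus 5 of the 7 tested members were called and all 5 were higher, where 15.9% of the 15440 genes tested were called, 10.7% higher and 5.19% lower. The same 5 had no overlap between the groups, all with vesicles above PBS; of the genes tested 35.7% had none, 19.5% with vesicles above PBS and 16.2% below. Cebpa and Nr4a1 were not called. In bulk RNA, a change in the number of cells of a type and in RNA per cell cannot be told apart.

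Cebpd (ENSMUSG00000071637), the C/EBPδ gene of the acute-phase response, had 695, 620 and 515 CPM in vesicle retinas, against 50.0, 24.1 and 40.4 CPM in PBS retinas. Every vesicle library was above every PBS library, and the means were 610 ± 90.6 and 38.2 ± 13.1 CPM (SD, n = 3 each). The log2 fold change was 4.0 ± 0.30 (SE; edgeR adjusted p = 0.00054). Cebpb (ENSMUSG00000056501), which encodes C/EBPβ, had 37.3, 42.0 and 25.4 CPM in vesicle retinas, against 2.94, 3.22 and 3.30 CPM in PBS retinas. The PBS libraries were nearly level, and the vesicle libraries spread more widely above them. Cebpb averaged 34.9 ± 8.53 CPM with vesicles and 3.15 ± 0.193 CPM with PBS, a log2 fold change of 3.46 ± 0.21 (edgeR adjusted p = 4.0e-05). Both genes kept the call in all 14 alternatives, with log2 fold changes from 3.75 to 4.24 for Cebpd and from 3.27 to 3.65 for Cebpb.

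**Figure D1:**
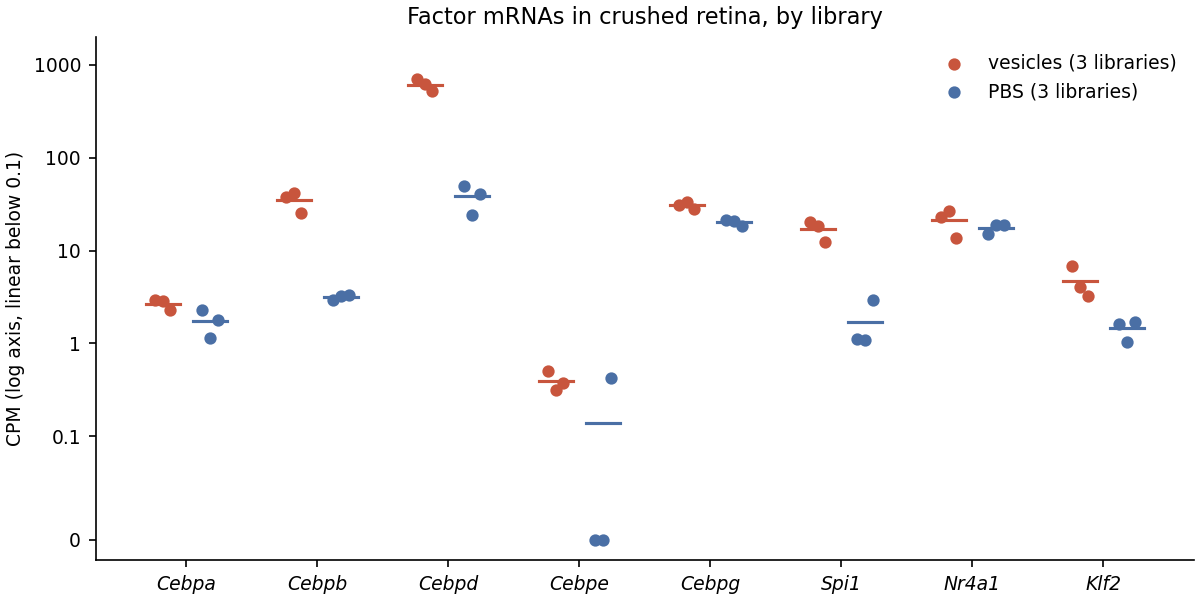
Level of each of the 8 factors in the 6 retina libraries, in CPM on a log axis that is linear below 0.1; points are libraries and short lines are means of 3, vesicles left and PBS right of each name. The vesicle points of Cebpb, Cebpd and Spi1 lie far above the PBS points, and those of Nr4a1 lie on both sides of them.

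Cebpg (ENSMUSG00000056216), the pairing partner within the family, had 30.8, 32.9 and 28.2 CPM in vesicle retinas, against 21.3, 20.9 and 18.6 CPM in PBS retinas. The groups did not overlap, but the gap was small beside that of Cebpb and Cebpd: the log2 fold change was 0.60 ± 0.12 (edgeR adjusted p = 0.0094). The call held in all 14 alternatives, with adjusted p up to 0.047. Cebpa (ENSMUSG00000034957), the C/EBPα gene, had 2.93, 2.84 and 2.28 CPM in vesicle retinas, against 2.28, 1.16 and 1.80 CPM in PBS retinas. The lowest vesicle library and the highest PBS library met at the same value. Its log2 fold change was 0.62 ± 0.34 (95% interval -0.14 to 1.38; edgeR adjusted p = 0.25), so a change as large as that of Cebpg falls inside its interval. Cebpe (ENSMUSG00000052435), the C/EBPε gene of late granulocyte precursors, had 8, 5 and 6 counts in vesicle retinas and 0, 0 and 7 counts in PBS retinas. All 7 PBS counts came from 1 library. The groups' counts, 19 and 7, gave a depth-scaled ratio of 2.69 (95% interval 1.08 to 7.56, counting error only), with no test across libraries. A count of 0 allows up to 3 counts, which is 0.178 to 0.193 CPM in these libraries.

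Spi1 (ENSMUSG00000002111), the PU.1 gene, had 20.3, 18.5 and 12.5 CPM in vesicle retinas, against 1.11, 1.09 and 2.94 CPM in PBS retinas. The third PBS library was well above the rest of its group and still far below every vesicle library. Spi1 averaged 17.1 ± 4.11 CPM with vesicles and 1.72 ± 1.06 CPM with PBS, a log2 fold change of 3.30 ± 0.40 (edgeR adjusted p = 0.0014). The call held in all 14 alternatives, with log2 fold changes from 3.03 to 3.94.

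Klf2 (ENSMUSG00000055148), the quiescence factor, had 6.75, 4.05 and 3.27 CPM in vesicle retinas, against 1.63, 1.03 and 1.68 CPM in PBS retinas. All vesicle libraries were above all PBS libraries, and the first vesicle library was the highest. The log2 fold change was 1.69 ± 0.36 (edgeR adjusted p = 0.013), and the call was lost without vesicle library 1 (adjusted p = 0.061), without PBS library 2 (0.058) and without the lens-rich pair of libraries (0.052, at a log2 fold change of 1.89). Nr4a1 (ENSMUSG00000023034), the Ly6C-low monocyte factor, had 23.1, 26.4 and 13.6 CPM in vesicle retinas, against 14.9, 19.0 and 18.8 CPM in PBS retinas. The vesicle libraries lay on both sides of the PBS libraries. Its log2 fold change was 0.26 ± 0.23 (95% interval -0.28 to 0.79; edgeR adjusted p = 0.50), and it was -0.034 without the lens-rich pair. The other 4 called members kept their calls without that pair, at adjusted p from 0.0011 to 0.037.

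In the pericyte-labelled cells, Cebpd, Cebpb and Spi1 were higher with vesicles at 12 hours. These were 3 of 7 tested members, where 19.8% of the 16975 genes tested were called, 10.9% higher and 8.90% lower. Over all genes 1855 were called higher and 1510 lower, against 1558 and 1955 with upper-quartile scaling and 1512 and 2050 with total counts. The groups of these 3 members did not overlap; of the genes tested 33.8% had no overlap, 17.4% with vesicles above PBS and 16.4% below. Cebpa, Cebpg, Klf2 and Nr4a1 were not called.

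Cebpd had 371, 293 and 294 CPM in vesicle-treated cells, against 89.0, 88.5 and 94.3 CPM in PBS-treated cells. The PBS libraries were level and the first vesicle library stood highest. Cebpd averaged 319 ± 45.0 CPM with vesicles and 90.6 ± 3.25 CPM with PBS, a log2 fold change of 1.82 ± 0.08 (edgeR adjusted p = 1.4e-13). Cebpb, its inflammatory relative, had 92.8, 71.1 and 72.1 CPM in vesicle-treated cells, against 38.4, 30.9 and 31.0 CPM in PBS-treated cells. Again the first library was the highest, here in both groups, and the groups did not overlap. The log2 fold change of Cebpb was 1.23 ± 0.10 (edgeR adjusted p = 1.1e-08). Both calls held in all 14 alternatives.

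Spi1 was low, with 64, 80 and 27 counts in vesicle-treated cells and 26, 16 and 23 counts in PBS-treated cells. That was 1.91, 2.19 and 0.727 CPM with vesicles, against 0.674, 0.475 and 0.621 CPM with PBS. The third vesicle library was only just above the PBS libraries. Its log2 fold change was 1.43 ± 0.43 (edgeR adjusted p = 0.021). The call was lost with limma-voom (adjusted p = 0.075) and without vesicle library 1 (0.061), vesicle library 2 (0.139), PBS library 2 (0.085) or PBS library 3 (0.056).

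**Figure D2:**
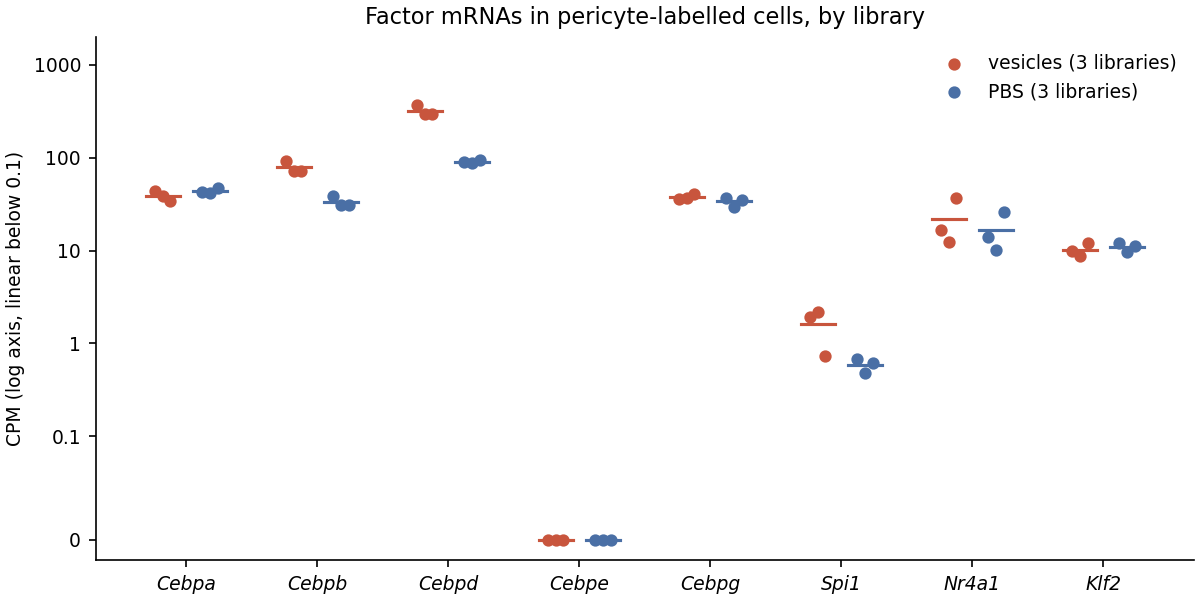
Level of each of the 8 factors in the 6 libraries of pericyte-labelled cells, in CPM on a log axis that is linear below 0.1; points are libraries and short lines are means of 3, vesicles left and PBS right of each name. Cebpb and Cebpd are separated by group, the third library of each group is the highest for Nr4a1, and Cebpe is at 0 throughout.

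Cebpa had 43.8, 38.2 and 34.1 CPM in vesicle-treated cells, against 42.7, 41.3 and 47.4 CPM in PBS-treated cells. The groups overlapped, and the log2 fold change of -0.18 ± 0.09 was not called (95% interval -0.36 to 0.0012; edgeR adjusted p = 0.17); without vesicle library 1 it was -0.28 and was called (0.012). Cebpg had 35.5, 36.5 and 41.0 CPM in vesicle-treated cells, against 36.9, 29.6 and 35.4 CPM in PBS-treated cells. Its groups overlapped too, with a log2 fold change of 0.15 ± 0.09 (95% interval -0.036 to 0.33; adjusted p = 0.29). Klf2 had 9.96, 8.76 and 11.9 CPM in vesicle-treated cells, against 12.0, 9.63 and 11.1 CPM in PBS-treated cells. The groups overlapped, and the log2 fold change was -0.09 ± 0.13 (95% interval -0.37 to 0.18, edgeR adjusted p = 0.71). Nr4a1 had 16.5, 12.2 and 36.9 CPM in vesicle-treated cells, against 13.8, 10.2 and 25.7 CPM in PBS-treated cells. The third library was the highest in each group, and the interval of its log2 fold change of 0.40 ± 0.61 ran from -1.27 to 2.06 (adjusted p = 0.76). Cebpe had 0 counts in all 6 libraries, which allows up to 0.0909 CPM in the shallowest of them.

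The vesicle effects in the retina and in the pericyte-labelled cells were set against each other in 1 limma-voom model, as the difference of the log2 fold changes, retina minus pericyte. It was 2.25 ± 0.24 for Cebpd (SE; adjusted p = 4.7e-05), 2.19 ± 0.44 for Cebpb (0.0043) and 1.74 ± 0.48 for Klf2 (0.026). These 3 of 7 members were called, where 12.0% of the 13712 genes tested were. The difference for Klf2 was not called without retina vesicle library 1 (adjusted p = 0.111), retina PBS library 2 (0.136) or retina PBS library 3 (0.057). For Spi1 the difference was 2.14 ± 0.69 (adjusted p = 0.057) and was called without retina vesicle library 3 (0.018) or pericyte vesicle library 2 (0.036). Differences of 0.45 ± 0.18 for Cebpg (0.13), 0.85 ± 0.48 for Cebpa (0.29) and -0.14 ± 0.68 for Nr4a1 (0.93) were not called; without pericyte PBS library 2 that of Cebpg was 0.54 and was called (0.041). Tissue, route, time and sequencing of separate tables differ together between these experiments and cannot be told apart.

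**Figure D3:**
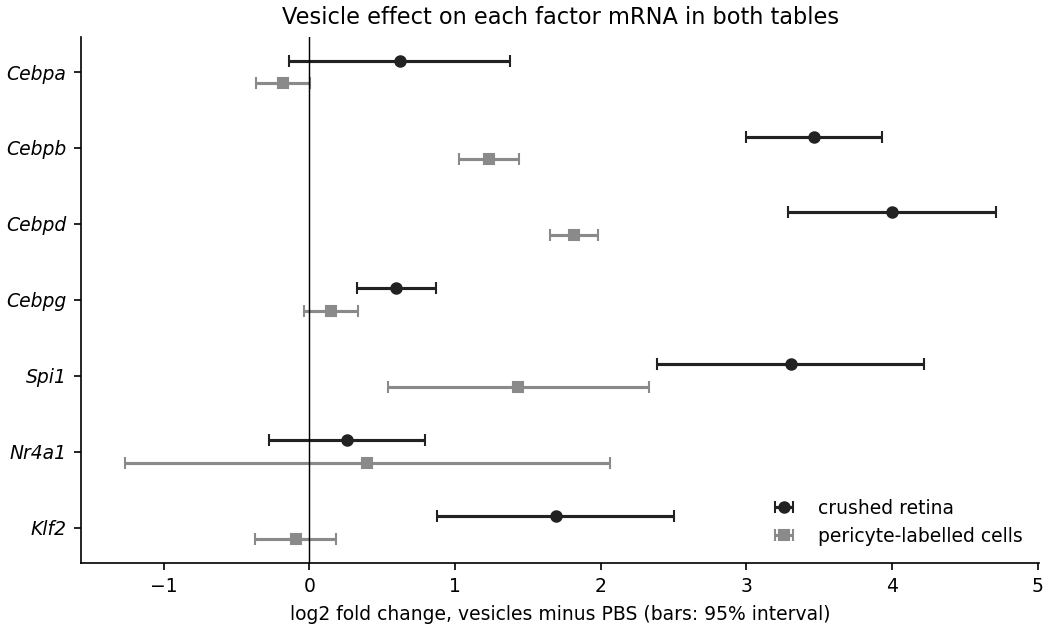
Log2 fold change of 7 factors, vesicles minus PBS, with 95% intervals from edgeR (3 libraries a group); circles are the retina and squares the pericyte-labelled cells. The intervals of Cebpb, Cebpd and Spi1 lie above 0 in both, those of Klf2 and Cebpg lie above 0 in the retina and hold 0 in the cells, and both intervals of Nr4a1 and Cebpa hold 0.

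Divided by exon length from GENCODE M21, the levels of the factors can be ordered within a group. The lengths are unions of all annotated exons, and the annotation behind the counts is not given. The order and the C/EBP shares below depend on these lengths. In vesicle retinas Cebpd led with 163 ± 24.2 CPM per kb, followed by Cebpb with 23.2 ± 5.67. Spi1, Nr4a1 and Cebpg followed with 6.35 ± 1.53, 6.0 ± 1.90 and 5.45 ± 0.426, and their ranges overlapped. Klf2 (2.54 ± 0.990), Cebpa (1.02 ± 0.133) and Cebpe (0.321 ± 0.0805) came last. In PBS retinas Cebpd led with 10.2 ± 3.49 CPM per kb, and Nr4a1 (5.01 ± 0.654) and Cebpg (3.60 ± 0.260) stood above Cebpb (2.10 ± 0.128). Klf2, Cebpa and Spi1, from 0.637 to 0.785, overlapped in PBS retinas, and Cebpe was at 0.113 ± 0.196.

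In vesicle-treated pericyte-labelled cells the order was Cebpd with 85.2 ± 12.0 CPM per kb, Cebpb with 52.3 ± 8.14 and Cebpa with 14.7 ± 1.86. In PBS-treated cells the same 3 led, with 24.2 ± 0.868, 22.2 ± 2.84 and 16.6 ± 1.21, and there Cebpd and Cebpb overlapped. Cebpg, Nr4a1 and Klf2 followed in both groups, between 4.72 and 6.70, with overlapping ranges. Spi1 had 0.597 ± 0.288 CPM per kb with vesicles and 0.219 ± 0.0382 with PBS. Cebpa, low among the factors in the retina, was thus behind only Cebpd and Cebpb in the cultured cells.

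The 5 C/EBP members summed to 193 ± 29.2 CPM per kb in vesicle retinas and 16.7 ± 3.65 in PBS retinas. In the cultured cells the sum was 159 ± 21.5 with vesicles and 69.1 ± 3.59 with PBS. Cebpd made up 84.5 ± 1.74% of the sum in vesicle retinas and 59.9 ± 8.41% in PBS retinas. Its share in the cultured cells was 53.6 ± 0.289% with vesicles and 35.1 ± 1.81% with PBS, and in neither table did the groups overlap. The share of Cebpb overlapped between groups in both tables: 12.0 ± 1.76% with vesicles and 13.1 ± 3.54% with PBS in the retina, and 32.9 ± 0.656% and 32.1 ± 3.03% in the cultured cells. Cebpg took 2.85 ± 0.307% in vesicle retinas and 22.4 ± 5.84% in PBS retinas although its own level was higher with vesicles. Cebpa took 9.26 ± 0.565% in vesicle-treated cells and 24.1 ± 1.58% in PBS-treated cells.

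**Figure D4:**
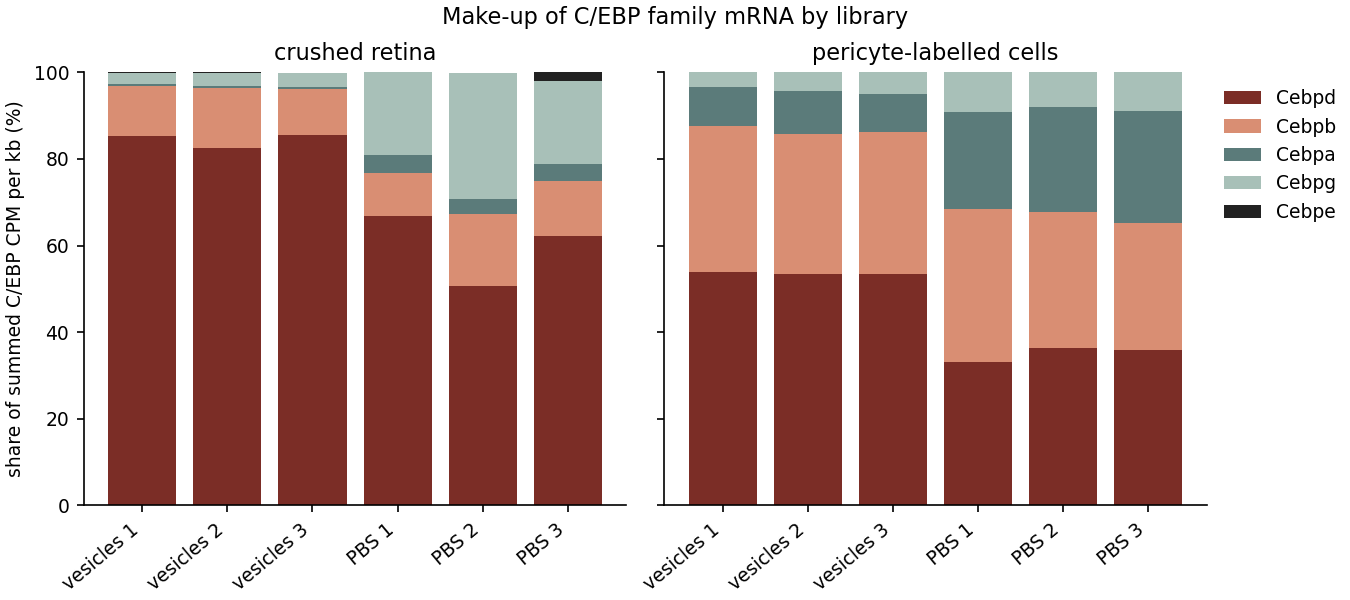
Share of each C/EBP member in the summed C/EBP CPM per kb of a library (%), for 3 vesicle and 3 PBS libraries of the retina (left) and of the pericyte-labelled cells (right). Cebpd takes 84.5% on average in vesicle retinas and 59.9% in PBS retinas, and Cebpa is visible as a wide band in the PBS-treated cells.

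In the retina, most markers of monocytes, macrophages and neutrophils were higher with vesicles, and most markers of rods were lower. All 12 monocyte and macrophage markers were called higher, and their summed level was 814.6 to 1185 CPM in vesicle retinas and 77.5 to 112 CPM in PBS retinas. Of 10 tested neutrophil markers 9 were higher, and the 12 listed summed to 376.5 to 821 CPM with vesicles and 15.9 to 38.6 CPM with PBS. Without the lens-rich pair 9 of the 12 monocyte and macrophage markers and 6 of the 10 neutrophil markers were called. In addition, 1 neutrophil marker was called lower without PBS library 2. Rod markers were lower for 5 of 6 tested, and summed to 62370 to 75680 CPM with vesicles and 92610 to 97520 CPM with PBS. Of 9 homeostatic microglia markers 4 were lower, Siglech and P2ry12 among them, and 1, Fcrls, was higher; they summed to 55.1 to 176.8 CPM with vesicles and 80.3 to 82.6 CPM with PBS. Several of the monocyte and macrophage markers, Csf1r and Itgam among them, are also made by microglia. In the cultured cells 3 of 10 tested monocyte and macrophage markers were higher (Cd14, Ptprc and Adgre1), the sum was 130.9 to 189.4 CPM with vesicles and 98.9 to 104 CPM with PBS, and Ccr2 had 0 counts in all 6 libraries; 5 were called higher without vesicle library 3, and 2 without vesicle library 2, PBS library 1 or PBS library 3. Of the neutrophil markers, Ly6g, Retnlg, Cxcr2 and S100a9 had 0 counts there. The part of these cell types in the levels of the factors was not tested.

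Set against those markers within each retina library, the factors fell into 3 kinds. Spi1 had 1.73, 1.56 and 1.53 counts per 100 counts of the 12 monocyte and macrophage markers with vesicles, and 1.03, 1.41 and 2.62 with PBS. Cebpb had 3.18, 3.54 and 3.12 with vesicles, and 2.72, 4.16 and 2.95 with PBS. For both genes the groups overlapped. Cebpd had 59.3, 52.3 and 63.2 with vesicles, and 46.3, 31.1 and 36.0 with PBS, and these groups did not overlap. Klf2, although higher in CPM, had 0.576, 0.341 and 0.402 per 100 marker counts with vesicles, and 1.51, 1.33 and 1.5 with PBS. Cebpa, Cebpg and Nr4a1 were likewise lower against the markers in every vesicle library. The marker sum itself was 814.6 to 1185 CPM with vesicles and 77.5 to 112 CPM with PBS. A gene that rose less than that sum is lower in this ratio by construction. The share of all genes without overlap in this ratio was not computed. The placing depends on the markers: without Lyz2 and Cd14, a choice made after seeing the data, Spi1 had 6.0, 5.71 and 5.62 with vesicles and 1.76, 2.64 and 4.82 with PBS, and Cebpb 11, 12.9 and 11.5 with vesicles and 4.67, 7.77 and 5.41 with PBS, which do not overlap.

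**Figure D5:**
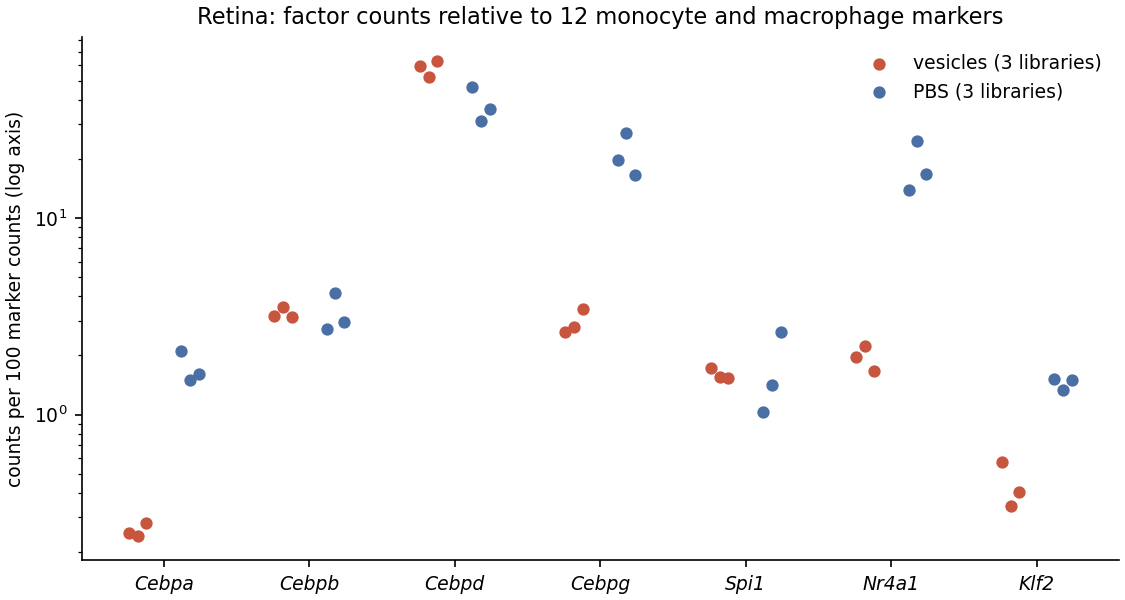
Counts of 7 factors per 100 counts of 12 monocyte and macrophage markers in each retina library (log axis), 3 vesicle libraries left and 3 PBS libraries right of each name. Spi1 and Cebpb overlap between groups, Cebpd is higher with vesicles, and Cebpa, Cebpg, Nr4a1 and Klf2 are lower with vesicles. A gene that rose less than the marker sum is lower in this ratio by construction.

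Genes that C/EBP factors pair with or that regulate them were called higher for 7 and lower for 1 of 12 tested in the retina (median log2 fold change 0.87, against -0.02 over all genes tested). Atf3, a stress-induced zipper protein, averaged 51.3 ± 9.84 CPM in vesicle retinas and 8.79 ± 1.21 CPM in PBS retinas, and Stat3, the transducer of IL-6 signals, 161 ± 36.5 and 40.2 ± 8.12 CPM. Batf, a zipper protein of leukocytes, averaged 4.27 ± 0.320 CPM with vesicles and 0.207 ± 0.128 CPM with PBS. Without the lens-rich pair of libraries 3 of 12 were called higher and 0 lower, with 8 under an unadjusted p of 0.05; 4 were higher without vesicle library 1, vesicle library 2 or PBS library 2. Trib3 was the gene called lower, at 4.40 ± 0.256 CPM with vesicles and 7.41 ± 1.10 CPM with PBS, a call also lost without vesicle library 2, vesicle library 3, PBS library 1 or PBS library 2. Of 11 tested in the pericyte-labelled cells 6 were higher and 2 lower (median 0.27, against 0.00056 over all genes tested). There 4 were higher with upper-quartile scaling, with total counts or without PBS library 1. With no low-count filter, a replicate block or without vesicle library 2, 8 were higher. The lower count was 1 without vesicle library 2 or PBS library 3. Id2, an inhibitor of helix-loop-helix factors, averaged 143 ± 36.0 CPM in vesicle retinas and 48.4 ± 4.70 CPM in PBS retinas. The cultured cells had the other direction, with 76.3 ± 8.40 CPM with vesicles and 105 ± 2.86 CPM with PBS (log2 fold change -0.47 ± 0.07; edgeR adjusted p = 4.3e-05).

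All 13 acute-phase and inflammatory genes known as C/EBP targets were called higher in the retina (median log2 fold change 5.55), and 10 of 12 tested were higher in the pericyte-labelled cells (median 1.93). The retina count was 10 of 13 without the lens-rich pair. Lcn2, an iron-scavenging acute-phase protein, averaged 2040 ± 428 CPM in vesicle retinas and 64.2 ± 9.59 CPM in PBS retinas. In the cultured cells Lcn2 averaged 118 ± 5.61 CPM with vesicles and 1.38 ± 0.398 CPM with PBS. C3, the central complement component, had 119 ± 36.9 CPM with vesicles and 4.94 ± 0.629 CPM with PBS in the retina, and 515 ± 47.7 and 115 ± 4.28 CPM in the cultured cells. Nos2, the inducible nitric oxide synthase, had 51.8 ± 2.90 CPM in vesicle-treated cells and 0.178 ± 0.11 CPM in PBS-treated cells. The genes not called in the cultured cells were Orm2 and Ptgs2; Ptgs2 had 78.1, 27.5 and 30.2 CPM with vesicles and 39.3, 4.96 and 6.89 CPM with PBS, the first library highest in each group.

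Of 9 granule genes linked to C/EBPε and C/EBPα that were tested in the retina, 6 were higher with vesicles (median log2 fold change 4.53): Cd177, Mmp8, Mmp9, S100a8, S100a9 and Chil3. Without the lens-rich pair 4 of 8 tested were called higher, and 1 was called lower without PBS library 2. Mmp8, Mmp9, S100a8, S100a9, Ltf, Camp and Ngp also stand among the neutrophil markers above, so these counts are not separate from those. S100a8, a subunit of calprotectin, averaged 194 ± 72.9 CPM with vesicles and 2.56 ± 0.987 CPM with PBS. Of the azurophil granule genes, made in promyelocytes, Elane, Mpo and Ctsg had 0 counts in all 6 retina libraries, while Prtn3 passed the filter. Camp and Ngp were under the filter and were not tested. Ltf, Padi4 and Prtn3 were not called, and Ltf, the lactoferrin gene, had 3.38 ± 0.365 CPM with vesicles and 6.99 ± 5.45 CPM with PBS. Mmp9 and Prtn3 alone were tested in the pericyte-labelled cells, and Mmp9 was called, at 3.30 ± 0.368 CPM with vesicles and 0.933 ± 0.179 CPM with PBS.

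Among genes known as PU.1 targets in phagocytes, 21 of 22 were higher in the retina (median log2 fold change 3.24). Lyz2, lysozyme M, averaged 603 ± 128 CPM in vesicle retinas and 35.5 ± 4.59 CPM in PBS retinas. Fcgr2b, the inhibitory Fc receptor, averaged 58.3 ± 9.27 and 4.32 ± 1.10 CPM, and the gene not called was Csf2ra; without the lens-rich pair 15 of 22 were called. Among 18 tested in the pericyte-labelled cells 5 were higher and none lower by edgeR with all libraries (median 0.43), namely Cybb, Csf2rb, Ptprc, Adgre1 and Csf2ra. Of the 18, 9 had an unadjusted p under 0.05. Without vesicle library 1, 4 were called higher and 1 lower. Without vesicle library 2 or PBS library 1, 3 were called higher. Cybb, the catalytic subunit of the phagocyte oxidase, averaged 6.81 ± 1.61 CPM with vesicles and 1.32 ± 0.0407 CPM with PBS. Csf1r, the macrophage growth factor receptor, was not called there, at 4.50 ± 0.739 CPM with vesicles and 4.64 ± 0.291 CPM with PBS. Of this list Lyz2, Ptprc, Adgre1, Tyrobp, Fcgr1, Itgam, Csf1r, Cd68 and Csf3r also stand among the markers above, so the counts are not separate.

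Of 17 other transcription factors of myeloid cells tested in the retina 10 were higher and 1, Mef2c, was lower (median log2 fold change 1.43); the lower call was lost without vesicle library 2 or the lens-rich pair. Irf8, which directs monocyte fate, averaged 12.7 ± 2.96 CPM with vesicles and 1.44 ± 0.666 CPM with PBS. Runx1, a factor of blood stem cells, averaged 5.18 ± 0.785 and 0.542 ± 0.318 CPM. Of 15 tested in the pericyte-labelled cells 7 were higher and 1, Maf, was lower (median 0.45). Runx1 was among those called higher there, with 40.2 ± 2.45 CPM with vesicles and 13.6 ± 2.01 CPM with PBS. Irf5, a factor of inflammatory macrophages, averaged 4.95 ± 0.499 CPM with vesicles and 1.28 ± 0.112 CPM with PBS.

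The relatives of Nr4a1 and Klf2 did not move as a block. In the retina 4 of 15 were higher (Klf6, Nr4a3, Klf10 and Klf3) and none lower by edgeR (median log2 fold change 0.14), with 4 under an unadjusted p of 0.05; limma-voom called 2, as did edgeR without any 1 library but vesicle library 3. Nr4a3 averaged 3.24 ± 0.885 CPM with vesicles and 0.676 ± 0.222 CPM with PBS in the retina. Of 16 tested in the pericyte-labelled cells 5 were higher (Klf6, Klf5, Klf4, Klf10 and Nr4a3) and 2 lower (Nr4a2 and Klf13; median 0.14). Klf6, an injury-induced factor, averaged 147 ± 13.1 CPM with vesicles and 82.5 ± 9.66 CPM with PBS there. Nr4a2 averaged 3.06 ± 0.832 CPM with vesicles and 6.05 ± 1.01 CPM with PBS, the opposite direction to Nr4a3 in the same cells, which had 9.29 ± 0.529 and 6.08 ± 0.943 CPM.

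Of 5 genes downstream of Klf2 tested in the retina, 2 were called higher and 1 lower (median log2 fold change 1.49). The higher count was 1 without the lens-rich pair and 3 with DESeq2 or without vesicle library 3. Itgb7, an integrin subunit of lymphocyte homing, was among those called higher, at 2.57 ± 0.895 CPM in vesicle retinas and 0.414 ± 0.153 CPM in PBS retinas. Nos3, the endothelial nitric oxide synthase, was called lower, at 2.69 ± 0.458 CPM with vesicles and 5.41 ± 0.0583 CPM with PBS, a call lost without vesicle library 2, PBS library 2, PBS library 3 or the lens-rich pair. S1pr1, a receptor for exit from lymphoid tissue, was not called in the retina but was higher in the cultured cells, where Klf2 was not called, at 72.1 ± 0.307 CPM with vesicles and 50.9 ± 5.24 CPM with PBS. Of 7 tested genes of Ly6C-low monocytes 4 were higher in the retina (Itgal, Adgre4, Treml4 and Ace) and Cd36 was lower. Without vesicle library 1 or PBS library 2 the count was 2 higher, and the lower call was lost without any 1 library but vesicle library 3 and without the lens-rich pair. In the cultured cells 0 of 6 were called by edgeR, DESeq2 or limma-voom, with 3 of the 6 under an unadjusted p of 0.05 by edgeR. There edgeR called 2 lower with upper-quartile scaling, with total counts or without vesicle library 1, and 1 lower without PBS library 1 or without the filter on low counts. Cx3cr1, the fractalkine receptor of these monocytes, was not called in the retina, at 3.75 ± 0.641 CPM with vesicles and 2.96 ± 0.460 CPM with PBS. Among 5 tested adipogenic targets of C/EBPα 0 were called in either table by edgeR, DESeq2 or limma-voom; 0 by edgeR and 1 by limma-voom had an unadjusted p under 0.05 in each table.

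Among the genes whose pattern over the 6 retina libraries was closest to that of Cebpb, by the root mean squared difference of log2(CPM + 0.5) centred on PBS, were Il18rap (0.179), Itgal (0.215), Cd177 (0.217) and Fcgr3 (0.218). In the 6 pericyte libraries those closest to Cebpd were Trim21 (0.0911), Tlr3 (0.108), Samd9l (0.109), Irak3 (0.11) and Ptx3 (0.119). Trim21 averaged 48.8 ± 2.53 CPM with vesicles and 13.9 ± 0.996 CPM with PBS. Il18rap averaged 6.22 ± 1.95 CPM with vesicles and 0.184 ± 0.157 CPM with PBS in the retina. The added 0.5 CPM shrinks the change of genes whose PBS level is near 0, so a close pattern is not an equal response. The edgeR log2 fold changes of Il18rap, Itgal and Cd177 were 5.01, 4.32 and 5.87. Those of Fcgr3 and Cebpb were 3.22 and 3.46.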

How the data were processed

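Trizol extraction and a NEBNext Ultra library kit are recorded, per the labels' protocols. FastQC 0.11.8, HISAT2 2.0.5, featureCounts 1.5.0-p3 and limma are named in the submitters' processing notes; the genome build, annotation and strand setting are not given in the sources used here. The values are raw counts per gene, as the authors deposited them, with 1 table per experiment; the tables hold no blank gene names. No mt- gene had a count in the retina table, and mt- genes took 1.87 to 2.24% of counts in the other.

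Each table was tested on its own with edgeR 4.0.16 (R 4.3.3), filterByExpr with a minimum count of 10, TMM factors and the robust quasi-likelihood test, with Benjamini-Hochberg adjustment over all genes tested. The coefficient of variation between libraries estimated by edgeR came to 0.203 for retina and 0.0818 for cells, with 4 residual degrees of freedom. Differences between the tables were tested with limma 3.58.1 (voom with quality weights). Alternatives were DESeq2 1.42.0, limma-voom, other size factors and filters, and each library left out in turn. The scripts were tested on simulated data. An exact two-sided permutation test of 3 against 3 libraries cannot go below 0.1, so none is given. Libraries of a group differed by more than sampling noise (chi-square per degree of freedom at least 10.5 in the retina and 5.87 in the cells).

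The members, gene lists and motifs were chosen with earlier results of these data known. Named from each list were up to 4 genes in order of p, genes needed to identify a count of 5 or fewer, and for 1 member in each table the 5 genes of closest pattern (some items are not reported here); S100a9, Chil3, Ltf, Padi4, Csf1r and Cx3cr1 fall outside that rule and were added with their values known. Lengths are exon unions of GENCODE M21. Promoter sequences are RefSeq's. Intervals and floors cover counting error only where so stated. The series' design text describes C3H10T1/2 cells, which match no sample used here.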

Additional observations from a re-analysis of the deposited data

Results flagged for a closer look

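The vesicle effect differed between the retina and the pericyte-labelled cells for 3 factors, by the test of the difference of log2 fold changes (retina minus pericyte, limma-voom, adjusted over all genes tested). The difference was 2.25 for Cebpd (adjusted p = 4.7e-05), with log2 fold changes in that model of 4.06 in the retina and 1.81 in the cells. It was 2.19 for Cebpb (adjusted p = 0.0043), with 3.42 in the retina and 1.23 in the cells. It was 1.74 for Klf2 (adjusted p = 0.026), with 1.64 in the retina and -0.10 in the cells. For Cebpd and Cebpb the difference was called in all 16 alternatives, and for Klf2 in 13 of 16.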

How the results depend on the processing

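Of 307 values of single factors recomputed under the alternatives, 285 kept their direction and their side of the threshold, 11 lost a call, 5 gained one and 6 changed sign. The sign changes were all of uncalled values: Nr4a1 in the retina without the lens-rich pair of libraries (-0.034), Nr4a1 in the cells without vesicle library 3 (-0.21, in a range of -0.21 to 0.86), Klf2 in the cells without vesicle library 2 (0.0035, in a range of -0.22 to 0.0035), and the Nr4a1 difference without retina vesicle library 3 (0.15), pericyte vesicle library 3 (0.34) or pericyte PBS library 2 (0.14), in a range of -0.51 to 0.34. Leaving out 1 library gave 1328 to 2909 called genes in the retina, against 2449 with all libraries, with 1401 without vesicle library 1, 1381 without vesicle library 2 and 1328 without PBS library 2; 4 or 5 factors were called. The lens-rich pair was left out as a choice made after seeing the data: 1420 genes and 4 factors were then called. In the cells, leaving out 1 library gave 2412 to 3500 called genes and 2 or 3 called factors, and the difference was called for 2 to 4 factors. Filtering at 1 CPM in 3 libraries left Spi1 untested in the cells. The causes were not tested.

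Over all genes tested, the pericyte libraries did not pair by replicate number. The correlations of deviations were 0.0183, 0.0274 and -0.0238, and 1 of 3 vesicle libraries matched its own number best. Correlations over all genes cannot exclude a pairing that acts on some of them. With a replicate block 3287 genes and 4 factors were called, Nr4a1 being the fourth (0.35 ± 0.10, adjusted p = 0.016). For the retina no paired analysis was possible because the columns carry no replicate number from the labels. With 3 libraries a group, and Spi1 in the cells at 16 to 80 counts and Cebpe in the retina at 0 to 8, small differences of these factors may have been missed. No limit of detection was computed for them.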
